A study of Mus musculus with 4 samples.

Results

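Mouse chromosome 16 ends in a stretch whose genes lie, in people, on chromosome 21. The genes described here are a listed part of that stretch, from App to Wrb. They lie beyond the longer part of chromosome 16 where values were higher in Pja2-induced cells. They were listed by symbol, and 38 of the 41 listed symbols were found among the 24689 genes of the deposited table. Cyyr1, Hunk and Bace2 were not analysed here. All 38 passed a filter of a mean over the libraries of at least 1 CPM (reads scaled to library size), as did 13276 genes in all, and all 38 are annotated on chromosome 16. Of the 59 genes from App to Wrb that passed the filter, 21 are not among the 38. The members were chosen by their place and by the difference in level between induced and control cells, since that difference set where the stretch begins. The same differences of the 38 genes are therefore given as a description, untested, and support nothing.

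The cells were HT-22, an immortalized mouse cell line labelled as hippocampal neuron, at passages given as 21 to 24. The 2 control libraries came from cells called uninduced in 1 label and wild type in another, and the 2 induced libraries from cells in which Pja2 was induced. The titles were WT for the control libraries and Pja2-pb for the induced ones, and the descriptions of the controls begin with PBIP. Neither says what pb or PBIP stands for. The labels do not state the means of induction, the agent or the vector. Nor do they state whether both groups came from 1 line or whether replicates were separate cultures. P-values therefore measure the spread between these libraries, which may be technical. The libraries held between 25787452 and 35262653 reads in genes. Pja2, a ubiquitin ligase gene, had 6167 and 5881 normalized reads in the control libraries and 54830 and 54244 in the induced ones, so the labels matched. Of 18 neuron markers 9 were in the table and 3 passed the filter. These were Eno2 at 3407 to 4107 normalized reads, Tubb3 at 574 to 728 and Camk2a at 23.2 to 108. Of the other 6, the synaptic vesicle gene Syp reached 23.9 normalized reads, and Syt1, Slc17a7, Nefl, Prox1 and Dcx had at most 8.80 in any library. Summed neuron markers, most of them reads of Eno2, stood at 4170 to 4732 normalized reads per library, against 310582 to 364939 for 8 mesenchymal markers, with the collagen gene Col1a2 at 170583 or more. Of 12 glial and microglial markers 10 were in the table and 6 passed the filter, of which limma called 0. Their list summed to 17757 to 20195 normalized reads per library. Pdgfra stood at 9270 to 10809, Cspg4 at 4671 to 5920 and Slc1a3 at 2956 to 4237. Gfap, Csf1r and Cx3cr1 had at most 9.79. Of the 6 that passed, 3 were lower in induced cells and 3 higher. The largest fall was that of Aldh1l1, from 57.8 and 65.3 to 5.44 and 14.8 (limma adjusted p = 0.0618). The largest rise was that of Mbp, from 21.4 and 33.7 to 62.0 and 64.9 (adjusted p = 0.137). Summed mesenchymal markers were 364939 and 318068 in controls against 310582 and 310819 in induced cells, with Acta2 called higher and Col3a1 lower (limma adjusted p = 0.0402 and 0.0309) of the 7 that passed the filter. The part of this difference in the values below was not tested. In a bulk sample fewer cells of a type and less RNA per cell cannot be told apart.

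An extra copy of human chromosome 21 causes Down syndrome, and mice carrying an extra copy of this end of chromosome 16 are the usual model of it. The stretch holds the amyloid precursor gene App, a cluster of interferon and cytokine receptors, the kinase gene Dyrk1a, and the transcription factor genes Runx1, Ets2 and Bach1. These genes share a neighbourhood and not a pathway, so they are described by role.

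Values are normalized reads, which are reads per gene divided by a factor per library. The log2 fold change is the mean log2(normalized reads + 1) of the induced libraries minus that of the controls, with its standard error (SE) from a limma fit to all 13276 genes. A gene is said to be called where its adjusted p in that fit was below 0.05.

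Along chromosome 16, 403 genes passed the filter. The median log2 fold change of the 325 from the chromosome start to Gbe1 was 0.37, and limma called 84 of them higher and 4 lower. Gbe1, the glycogen branching enzyme gene, was the last of these 325 and was called higher. It had 1270 and 1231 normalized reads in controls against 2361 and 2102 in induced cells. The next gene was Robo2, an axon guidance receptor gene, with 0 reads in both controls and 128 and 160 normalized reads in induced cells, at least 41.5-fold higher against a floor of 3 reads per library. Gbe1 and Robo2 were picked to show this border after their values were seen. Between Gbe1 and App lay 12 genes, Robo2 among them, with a median of 0.09. Of these 12, 1 was called higher, Robo2 (limma adjusted p = 0.00523), and 0 lower. The 4 nearest App were D16Ertd472e, the mitochondrial ribosomal gene Mrpl39, the ATP synthase gene Atp5j and the ETS factor gene Gabpa, at -0.18, 0.06, 0.28 and -0.09. The first 4 members beyond the border, App, Ltn1, Rwdd2b and Cct8, stood at 0.11, 0.06, 0.56 and 0.07.

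**Figure D1:**
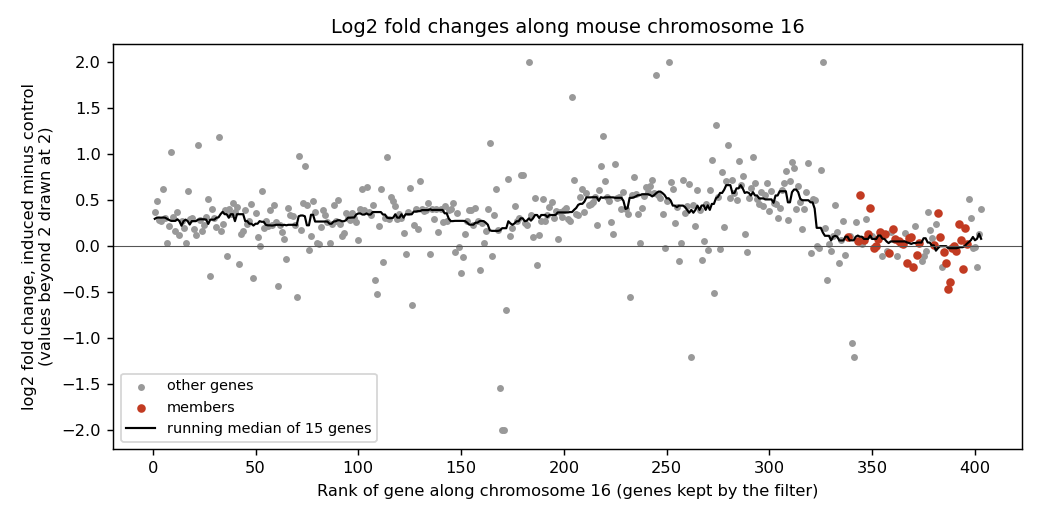
Each point is a gene that passed the filter, placed by its rank along mouse chromosome 16, with its log2 fold change (induced minus control) on the vertical axis and the members in red; the black line is a running median of 15 genes. The line stays above 0 up to the rank of Gbe1 (325) and near 0 from App (rank 338) to Wrb (rank 396).

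Over the 38 genes the median log2 fold change was 0.05, against 0.00 over all genes tested. Nothing is read from the counts that follow, since the same contrast chose the genes. Among them 26 lay above 0 and 12 below, and 50.4% of all genes lay above 0. limma called 0 of the 38, against 3.42% of all genes (2.08% higher, 1.34% lower). Of the 21 other genes from App to Wrb it called 2 lower, Adamts1 and Adamts5, and 0 higher. At an unadjusted p below 0.05 there were 8 of the 38, against 19.1% of all genes, and limma voom on the recovered reads also called 0. Without control replicate 2 the fit called 1, Tiam1. In 13 genes both induced libraries stood above both controls (26.2% of all genes), in 7 both stood below (25.1%), and in 18 the groups overlapped. The groups did not overlap in 20 of the 38, against 51.3% of all genes. Only 5 of the 38 had an absolute log2 fold change of at least 0.25, which 27.2% of all genes reached: Rwdd2b, Hlcs, Tiam1, Pigp and Cbr1. In 13 of the 38 genes exons overlap an exon on the opposite strand, and in the other 25 the median was 0.06 with 0 called by limma or voom and 7 at an unadjusted p below 0.05. The SE ran from 0.06 to 0.19 over the 38, with a median of 0.09.

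Together the 38 genes took up 0.330% of the reads in each control library, and 0.342% and 0.345% in the induced libraries. Their summed normalized reads were 106850 and 107934 in controls against 111719 and 112949 in induced cells. The sums did not overlap between the groups, and Son, App and Hmgn1 held the largest parts of them. The median deviation of the 38 genes from their own mean was -0.05 and -0.02 in the control libraries and 0.03 and 0.02 in the induced ones on the log2 scale. For the 325 genes before the border it was -0.19 and -0.18 in controls against 0.17 and 0.20 in induced cells, a difference that the way the members were chosen sets.

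**Figure D2:**
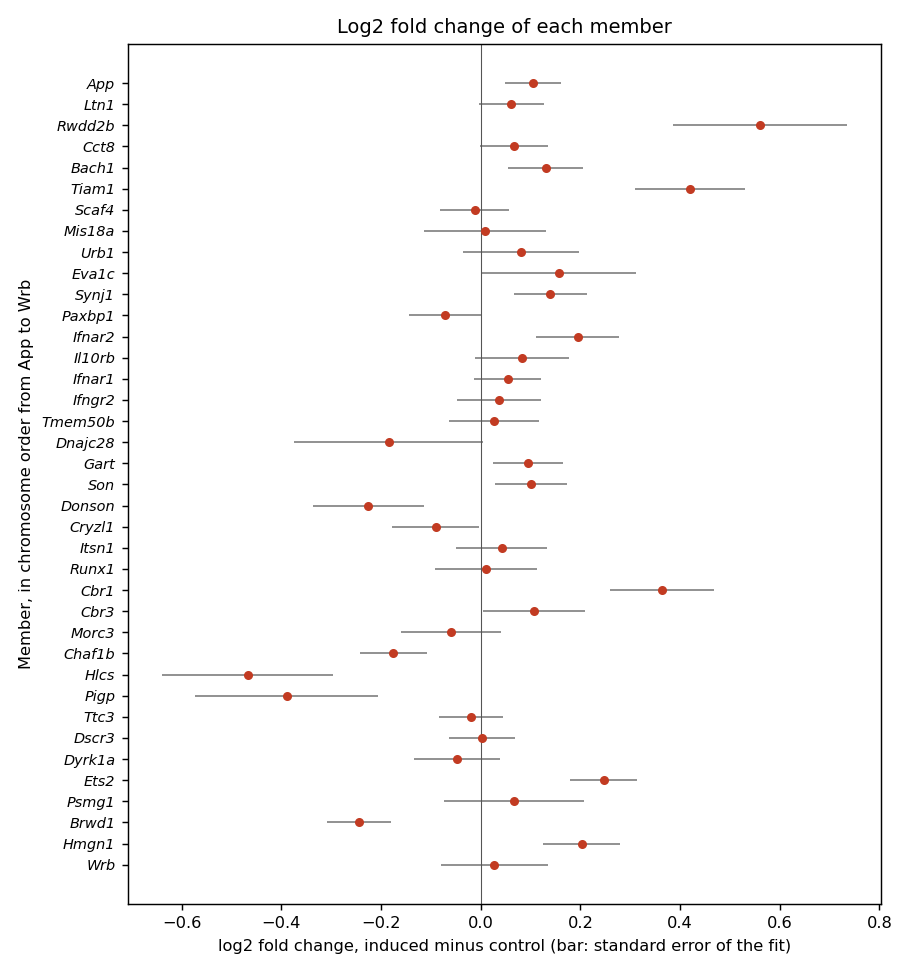
The log2 fold change (horizontal axis, induced minus control) of each of the 38 genes in chromosome order from App at the top to Wrb at the bottom, with bars for the standard error of the fit. Values run from -0.47 for Hlcs to 0.56 for Rwdd2b, and 5 of the 38 lie 0.25 or more from 0.

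Levels between genes were compared as normalized reads per kilobase of annotated exon (GENCODE M21), which is approximate because the annotation behind the deposited counts is not given. In control cells Hmgn1, a nucleosome-binding protein gene, was highest at 3563 per kilobase, and Cct8, a chaperonin subunit gene, next at 2822. Son, Morc3 and App followed at 1032, 1013 and 843. Next came Chaf1b at 796 and Cbr3 at 732, while Dyrk1a stood at 286 and Ifnar1 at 462. Runx1, Rwdd2b, Eva1c, Dnajc28 and Hlcs were the lowest, at 51.7, 50.6, 43.1, 29.9 and 17.7. In the induced cells Hmgn1 and Cct8 again stood highest, at 4095 and 2952, and Hlcs lowest at 12.8.

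**Figure D3:**
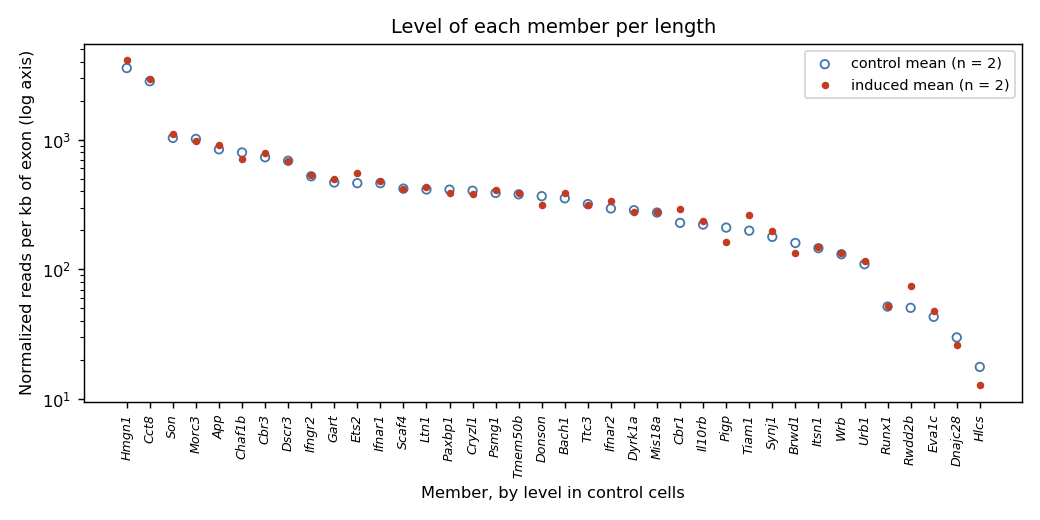
Mean level of each gene in normalized reads per kilobase of exon (log axis), in control cells (open circles, n = 2) and induced cells (filled circles, n = 2), ordered by the control level. The genes span from 17.7 (Hlcs) to 3563 (Hmgn1) per kilobase in control cells, and the 2 circles of a gene lie close together beside that range.

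App encodes the amyloid precursor protein, a membrane protein from which secretases cut the amyloid beta peptide. It had 10993 and 10915 normalized reads in controls against 11628 and 11938 in induced cells. Both induced libraries stood above both controls, by a log2 fold change of 0.11 (SE 0.06), the smallest SE of the 38. The exons of App overlap those of the antisense gene Gm49227, and the kit does not mark strand. Among 18 tested genes of the APP family, the secretases and their adaptors, limma called 0, with 3 at an unadjusted p below 0.05 and a median of -0.02.

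The receptor cluster holds Ifnar2 and Ifnar1, the chains of the type I interferon receptor, Ifngr2, a chain of the interferon gamma receptor, and Il10rb, a chain shared by receptors for interleukin 10 and its relatives. Ifnar2 had 1003 and 959 normalized reads in controls against 1106 and 1140 in induced cells. Its groups did not overlap, and the log2 fold change was 0.19 (SE 0.08). Ifnar1 had 2828 and 2661 in controls against 2848 and 2847 in induced cells. The induced libraries of Ifnar1 agreed to within 1 normalized read and lay just above the higher control. Ifngr2 had 2023 and 1909 in controls against 2123 and 1913 in induced cells. Il10rb had 883 and 806 in controls against 911 and 876 in induced cells. Both of these overlapped between groups, and the log2 fold changes of Ifnar1, Ifngr2 and Il10rb were 0.05, 0.04 and 0.08 (SE 0.07, 0.08 and 0.09). The exons of Ifnar2 and Il10rb overlap those of the gene model Gm21970 on the same strand. Among 14 tested genes downstream of these receptors, the JAK kinases, STAT factors and their regulators, limma called 0, with 4 at an unadjusted p below 0.05 and a median of 0.00.

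Of the 9 transcription factor and chromatin genes 3 stood above both controls in both induced libraries and 3 below, against 26.2% and 25.1% of all genes, and nothing is read from these counts. Ets2, an ETS-family factor gene, had 2631 and 2712 normalized reads in controls against 3094 and 3249 in induced cells (log2 fold change 0.247, SE 0.07). Bach1, a haem-regulated repressor of antioxidant genes, had 2191 and 2177 in controls against 2286 and 2498 in induced cells (0.13, SE 0.08). The lower induced library of Bach1 stood close to the controls. Hmgn1 had 10843 and 12112 in controls against 13608 and 12775 in induced cells (0.20, SE 0.08), with the controls further apart than the induced libraries. Runx1, a haematopoietic and neuronal transcription factor gene, had 592 and 652 in controls against 633 and 620 in induced cells. Both induced values of Runx1 lay between the controls, and its log2 fold change was 0.01 (SE 0.10).

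The other chromatin genes included the largest downward differences of this role. Brwd1, a bromodomain protein gene, had 3261 and 3223 normalized reads in controls against 2695 and 2780 in induced cells (log2 fold change -0.24, SE 0.06). Chaf1b, a subunit of the chaperone that deposits histones on new DNA, had 3771 and 3685 in controls against 3409 and 3197 in induced cells (-0.18, SE 0.07). In both genes the replicates of a group differed by less than the groups did. Morc3, an ATPase of nuclear bodies, had 5891 and 5113 in controls against 4928 and 5628 in induced cells (-0.06, SE 0.10), with 1 induced library inside the control range. Paxbp1 and Mis18a, a centromere licensing gene, had log2 fold changes of -0.07 and 0.01. The exons of Runx1, Brwd1 and Paxbp1 overlap antisense genes.

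Over all 12 lists of partner genes, 134 genes were tested, and limma called 3 higher and 3 lower, against 2.08% and 1.34% of all genes tested. Of 10 tested partners of Runx1, Bach1 and Ets2, limma called 0, with 5 at an unadjusted p below 0.05 and a median of 0.18. Of 13 histone chaperone and centromere genes, 2 fell and 0 rose (median 0.05). Hmgn3, a relative of Hmgn1, fell from 1322 and 1394 to 947 and 965 normalized reads (log2 fold change -0.51, SE 0.08, limma adjusted p = 0.0364), and Morc4, a relative of Morc3, fell by 0.39 on the log2 scale (adjusted p = 0.0377). Leaving out any 1 of the 4 libraries ended both calls, with adjusted p up to 0.127 and 0.147. In each list of partner or chromosome 21 genes said here to have 0 calls, voom also called 0. Among the 6 tested glial and microglial markers limma called 0 and voom called 1.

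Dyrk1a encodes a kinase with a known part in brain growth and cell cycle exit. It had 2441 and 2279 normalized reads in controls against 2419 and 2152 in induced cells. The groups overlapped, and the log2 fold change was -0.05 (SE 0.09). Of 11 tested DYRK relatives and partners 1 rose and 1 fell (median 0.08). Nfatc1, a calcineurin-dependent factor gene, had 1108 and 1094 in controls against 1491 and 1525 in induced cells (log2 fold change 0.45, limma adjusted p = 0.0399). Dyrk4, a kinase relative, fell from 112 and 83.2 normalized reads to 10.9 and 6.49 (-3.37, SE 0.39, adjusted p = 0.0179), from 89 and 79 reads to 10 and 7. Leaving out any 1 library ended the call of Nfatc1 (adjusted p up to 0.176), and leaving out control replicate 1 that of Dyrk4 (0.0696).

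Son, an RNA-binding protein of nuclear speckles, had the most reads of the 38 genes, with 15766 and 14996 normalized reads in controls against 15701 and 17333 in induced cells. Its groups overlapped (log2 fold change 0.10, SE 0.07), and 1 induced library stood above the other 3. Its exons overlap those of its neighbour Donson, a replication fork gene, which had 1114 and 1183 in controls against 1072 and 899 in induced cells (-0.23, SE 0.11). The 2 neighbours therefore differed in the sign of their values. Without induced replicate 1 the log2 fold change of Donson was -0.35, and without induced replicate 2 it was -0.10. Scaf4, which acts in transcript termination, and Urb1, a ribosome biogenesis gene, had log2 fold changes of -0.01 and 0.08, with overlapping groups.

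Of the 7 genes of folding, quality control and turnover, Ltn1 stood above both controls in both induced libraries and Dnajc28 below. The shares of all genes were 26.2% and 25.1%, and nothing is read from these counts. Cct8 had 8350 and 9079 normalized reads in controls against 9302 and 8929 in induced cells (log2 fold change 0.07, SE 0.07), with overlap. Ltn1, a ubiquitin ligase of stalled ribosomes, had 3165 and 3313 in controls against 3402 and 3357 in induced cells (0.06, SE 0.06). Ttc3, another ubiquitin ligase gene, had 5346 and 4998 in controls against 5087 and 5112 in induced cells (-0.02, SE 0.06). The differences of these 3 genes were no larger than about 1 SE. Psmg1, a proteasome assembly chaperone gene, Wrb, a receptor for tail-anchored proteins, Dscr3, of an endosomal recycling complex, and the J-domain gene Dnajc28 had log2 fold changes of 0.07, 0.03, 0.00 and -0.19. Among the 7 other tested chaperonin subunits limma called 0, with 1 at an unadjusted p below 0.05 and a median of 0.04. Among 16 tested genes of ribosome quality control, proteasome assembly, tail-anchor insertion and endosomal recycling it called 0, with 3 at an unadjusted p below 0.05 and a median of -0.03.

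Tiam1, an activator of the small GTPase Rac, had 1797 and 2199 normalized reads in controls against 2596 and 2726 in induced cells. Both induced libraries stood above both controls (log2 fold change 0.42, SE 0.11), and the controls were 1.22-fold apart. Without control replicate 2 the value was 0.57, and without control replicate 1 it was 0.27. Itsn1, an endocytic scaffold gene, had 3137 and 3689 in controls against 3485 and 3520 in induced cells (0.04, SE 0.09), with the induced libraries between the controls. Synj1, a phosphatase that helps shed clathrin coats, had a log2 fold change of 0.14 (SE 0.07) and no overlap. Among 13 tested endocytic partners limma called 0, with 1 at an unadjusted p below 0.05 and a median of 0.06.

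The 6 metabolic genes held 3 of the 5 differences of at least 0.25, which 27.2% of all genes reached. Nothing is read from this count, since the same contrast chose the genes. Hlcs, which attaches biotin to carboxylases, had 157 and 159 normalized reads in controls against 109 and 120 in induced cells (log2 fold change -0.47, SE 0.17). Its groups did not overlap, but it had the lowest level per kilobase of the 38. Gart, a purine synthesis enzyme gene, had a log2 fold change of 0.10 and Cryzl1, a quinone reductase relative, of -0.09. Among 8 tested biotin-dependent carboxylase genes limma called 0, with 4 at an unadjusted p below 0.05 and a median of -0.10. Among 10 tested purine synthesis genes it called 0, with 3 at an unadjusted p below 0.05 and a median of -0.03.

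Cbr1 and Cbr3 are neighbouring genes for closely related carbonyl reductases. Cbr1 had 561 and 606 normalized reads in controls against 718 and 785 in induced cells (log2 fold change 0.36, SE 0.10), and its groups did not overlap. Cbr3 had 851 and 984 in controls against 994 and 977 in induced cells (0.11, SE 0.10), with 1 control above 1 induced library. Reads may be shared between such relatives, so both values are uncertain. Whether the 2 genes differed from each other was not tested. Among 6 tested relatives in carbonyl reduction 1 rose, the aldose reductase gene Akr1b3, from 3918 and 4188 to 5834 and 6595 normalized reads (0.61, SE 0.08, limma adjusted p = 0.0249), and 0 fell (median 0.11). Leaving out control replicate 1 or induced replicate 2 ended that call (adjusted p up to 0.0657).

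The stretches from 130 to 11 bases before the RefSeq starts of this pair are shown because the neighbours differ there in base makeup, with the letters GGGCGG, known as the box bound by SP factors, in capitals. They lie at chr16:93607707-93607826 and chr16:93683089-93683208 on the plus strand of GRCm38.p6, and neither overlaps an annotated exon.
Cbr1: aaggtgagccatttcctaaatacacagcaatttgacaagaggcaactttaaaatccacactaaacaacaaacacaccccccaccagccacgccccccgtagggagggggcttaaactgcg
Cbr3: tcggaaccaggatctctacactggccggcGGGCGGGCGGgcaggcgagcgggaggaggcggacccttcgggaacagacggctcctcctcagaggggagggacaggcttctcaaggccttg
In the 250 bases before the start Cbr1 had 6 CG pairs and Cbr3 had 14. Taking the window with most CG pairs for each of the 36 genes with a RefSeq window, Cbr1 had the fewest and Dyrk1a the most, 43.

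Pigp, a subunit of the enzyme that starts GPI anchor synthesis, lies head to head with Ttc3. It had 431 and 403 normalized reads in controls against 376 and 269 in induced cells (log2 fold change -0.39, SE 0.18). Its induced libraries were 1.40-fold apart, the widest gap of the 38 genes, and the value was -0.63 without induced replicate 1 and -0.15 without induced replicate 2. The exons of Pigp and Ttc3 overlap on opposite strands, so some reads cannot be assigned to either. Among 8 tested genes of GPI anchor synthesis 1 rose and 0 fell (median 0.14). That was Piga, the catalytic subunit gene of the same enzyme, from 2687 and 2754 to 4524 and 4474 normalized reads (0.73, SE 0.06, limma adjusted p = 0.00799), and the call held in each of 10 refits.

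Pigp and Ttc3 were the only members whose RefSeq windows, from 250 bases before to 50 after a start, overlapped head to head. They are shown with Mis18a and Paxbp1 because these 4 genes hold the 10-letter motif bound by NRF1, a factor of mitochondrial and housekeeping genes, in capitals below and the same on both strands. The Pigp and Ttc3 stretch is the 28 bases between the nearest starts, at chr16:94370711-94370738 on the plus strand. Those of Mis18a and Paxbp1 are at chr16:90727372-90727400 and chr16:91044495-91044524 on the minus strand, with the motif beginning 19 and 135 bases before the start. All are from RefSeq on GRCm38.p6, and in GENCODE M21 each also lies within an exon.
Pigp and Ttc3: gggggcgacgcggcgactGCGCATGCGC
Mis18a: cttgcaccttGCGCATGCGCagaggtatt
Paxbp1: gagagcccagGCGCATGCGCaatcgaggcg
The log2 fold changes of Pigp, Ttc3, Mis18a and Paxbp1 were -0.39, -0.02, 0.01 and -0.07, with SE of 0.18, 0.06, 0.12 and 0.07, and no test was made of them.

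RefSeq windows were matched for 36 of the 38 genes by current or older symbol, with 46 windows in all, and motifs were searched on both strands in the 250 bases before each start. The NRF1 motif was in 10.9% of the 46 windows, against 1.72% of 11720 windows of genes that passed the filter and 0.782% of all 32851. Of its 5 windows 3 belong to the Pigp and Ttc3 pair and share 1 site. GGGCGG was in 65.2% of the 46 windows and in 57.9% of those of genes that passed, and the ETS letters CCGGAAG were in 15.2% and 14.1%. The NF-Y letters CCAAT were in 32.6% and 36.5%, the antioxidant response core TGACNNNGC in 13.0% and 11.8%, and the STAT letters TTCNNNGAA in 4.35% and 5.96%. The TATA box letters TATAAA and the cAMP response letters TGACGTCA were in none of the 46, against 6.37% and 2.69% of windows of genes that passed. The median number of CG pairs was 23 in the 46 windows, 16 in windows of genes that passed and 6 in all windows. These matches describe the sequences, and windows of 1 gene can overlap.

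The less described genes included the largest difference of the 38. Rwdd2b, a gene of little known function, had 182 and 214 normalized reads in controls against 325 and 262 in induced cells (log2 fold change 0.56, SE 0.17). Its groups did not overlap, but its induced libraries were 1.24-fold apart, and the value was 0.72 without induced replicate 2 and 0.40 without induced replicate 1. Eva1c, a membrane protein gene, had a log2 fold change of 0.16 with no overlap, and Tmem50b one of 0.03.

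**Figure D4:**
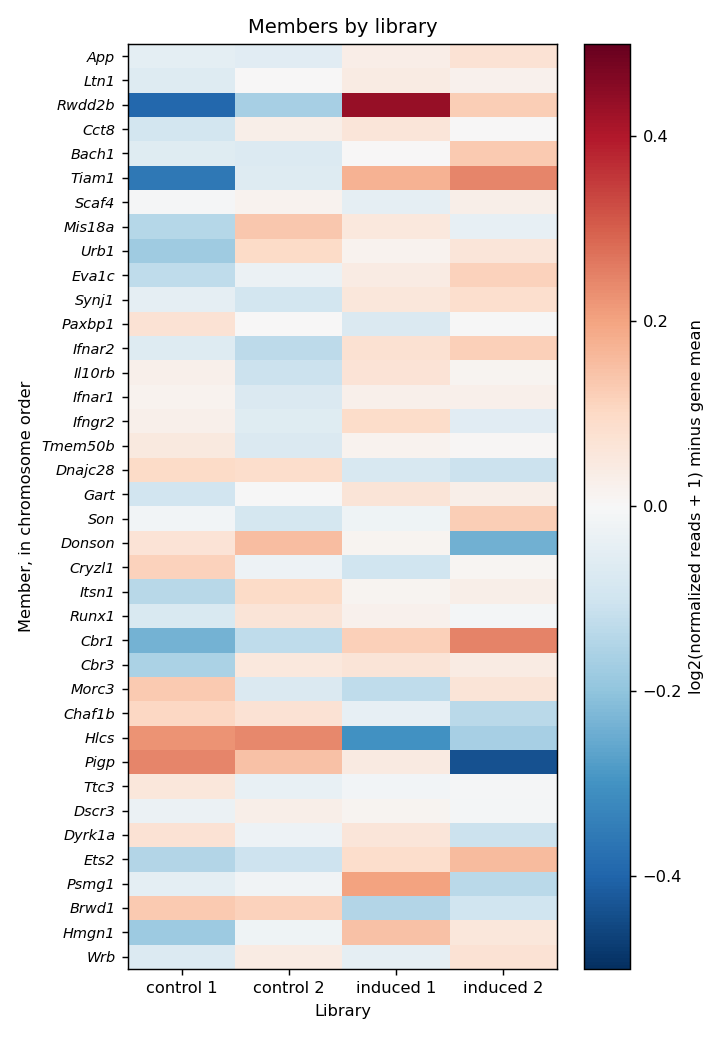
Each row is 1 of the 38 genes in chromosome order and each column 1 library; the colour is log2(normalized reads + 1) minus the mean of that gene over the 4 libraries. Rwdd2b, Tiam1, Cbr1 and Ets2 are red in both induced libraries, Hlcs and Brwd1 are blue in both, and Donson and Pigp are darkest in induced replicate 2.

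Other genes of human chromosome 21, listed from general knowledge, were set beside these 38. On chromosome 16 from Adamts1 onward, 17 further genes passed the filter, with a median log2 fold change of 0.02, 0 called higher and 2 called lower. These were Adamts1 and Adamts5, neighbouring genes for proteases that cut proteoglycans, which lie between App and Ltn1. Adamts1 fell from 1886 and 1719 to 859 and 878 normalized reads (log2 fold change -1.05, SE 0.09, limma adjusted p = 0.00698), and Adamts5 from 6663 and 5042 to 2453 and 2593 (-1.20, SE 0.13, adjusted p = 0.0158). Both calls held in each of 10 refits. Of 7 such genes that lie before App on chromosome 16, limma called 0, with 3 at an unadjusted p below 0.05 and a median of 0.06.

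Other parts of human chromosome 21 match mouse chromosomes 10 and 17, which the choice of the 38 genes did not use. On chromosome 10, 26 listed genes passed the filter, with a median of -0.10 and 17 below 0, while 50.4% of all genes lay above 0. At an unadjusted p below 0.05 there were 10 of the 26, against 19.1% of all genes. In 14 both induced libraries stood below both controls, against 25.1% of all genes, and in 5 both stood above, against 26.2%. limma called 0 higher and 2 lower, against 2.08% and 1.34% of all genes, and voom called 3. The largest differences each way, -1.14 for Pttg1ip and 0.99 for Ube2g2, were not called by limma. The 2 called lower by limma were the neighbouring collagen VI genes Col6a1 and Col6a2. Col6a1 fell from 17257 and 15261 to 9306 and 10510 normalized reads (log2 fold change -0.71, SE 0.09, limma adjusted p = 0.0226), and Col6a2 by 0.61 on the log2 scale (adjusted p = 0.0359). The call of Col6a1 ended without the expression filter (adjusted p = 0.0523). That of Col6a2 ended there too, and without control replicate 1 or induced replicate 1 (adjusted p up to 0.0873). On chromosome 17, 6 genes passed the filter, and limma called 0, with 1 at an unadjusted p below 0.05 and a median of 0.04. Whether these sets differed from the 38 genes was not tested.

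**Figure D5:**
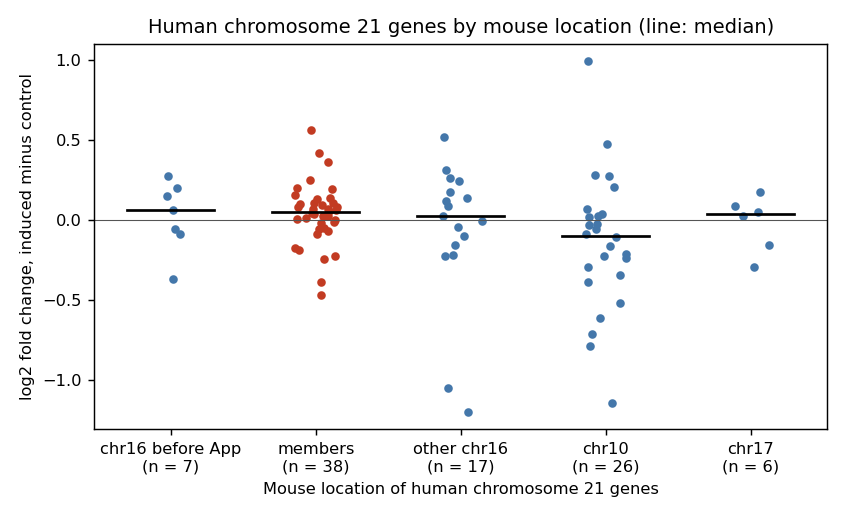
Log2 fold change (induced minus control) of each gene that passed the filter, by the mouse location of genes of human chromosome 21, with a line at each median. The medians run from -0.10 (chromosome 10, n = 26) to 0.06 (chromosome 16 before App, n = 7), and the 2 lowest points of the other chromosome 16 genes are Adamts5 and Adamts1.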

How the data were processed

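The authors deposited log2 values for 24689 genes in 4 libraries. Per the submitters' processing notes HISAT and Cufflinks were used with build mm9. Not given in the sources used here are the read counter, annotation and scaling. With 2 raised to each deposited log2 value and 1 subtracted, 100% of values were whole multiples of 1 step per library (tolerance 0.01), so the values are log2(normalized reads + 1) and reads could be recovered. RNA was extracted with Trizol and libraries made with a TruSeq kit, per the labels' protocols. Differences were fitted with limma 3.58.1 (R 4.3.3, trended prior, no covariate, 2 residual degrees of freedom, two-sided, Benjamini-Hochberg over 13276 genes, threshold 0.05), a script that was tested on simulated data. Depth of 25.8 to 35.3 reads per CPM limits precision for low genes; fold bounds cover counting error only. Gene order and exons came from GENCODE M21 (GRCm38), matched by Ensembl ID, so no coordinates of the counted genes are given.

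The members and lists were chosen with earlier results of these data known. Each library's value is given for members called, the 8 largest differences, the 8 with most reads and 12 fixed genes; in other lists up to 3 called genes are named. From the lists of chromosome 21 genes, 4 were moved to the mouse chromosome that the annotation gives. Within each group the 2 libraries differed by more than sampling of reads alone gives, with a chi-square averaging 20.7 (control) and 15.8 (induced) for each gene.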

Additional observations from a re-analysis of the deposited data

How the results depend on the processing

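The fit was repeated under 10 settings, 1 of which (voom) was added after seeing the data; the 2 planned count models, a quasi-likelihood and a negative binomial one, were not run, and voom on the recovered reads was run in their place. The 276 higher and 178 lower genes over the transcriptome became 100 and 59 without the expression filter and 157 and 104 with a replicate block. The libraries share only a number: deviations of same-numbered libraries had a correlation of -0.10 across genes. Leaving out 1 library gave 113 to 204 higher and 78 to 136 lower genes, with 1 residual degree of freedom in place of 2. The number of members called was 0 to 1 in those fits (1 without control replicate 2, Tiam1) and 0 in the other 6. The members' median log2 fold change ran from 0.03 without control replicate 1 to 0.08 without control replicate 2. In 25 members the sign was the same in all settings; the other 13 had an absolute value of at most 0.08. Of the named called genes outside the 38, Hmgn3, Morc4, Nfatc1 and Col6a2 lost the call both without the expression filter and with the replicate block. Akr1b3 and Col6a1 lost it only without the filter among the settings that kept all 4 libraries. For the markers Acta2 and Col3a1 no refits are described here, so whether their calls hold is not given. Depth limits the low members, whose SE reached 0.19.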
